A study of Mus musculus with 12 samples.

Results

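The core m6A regions are the stretches of exon sequence that carried a called N6-methyladenosine (m6A) peak in every heart of the series, young and aged. They were chosen by the peak calls themselves. Peaks of the same strand were merged to a region where they overlapped by 1 exon base or more, and core regions are those with a peak in all 6 peak lists. Of 15699 regions, 1663 (10.6%) were core regions, in 1360 of the 7088 genes with a peak in any heart (19.2%). Since the calls chose the members, the number of hearts, the p-values of the calls and the lengths of the peaks are given as descriptions with no test against the other regions.

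The hearts came from male C57BL/6 mice, young mice of 6 to 7 weeks and aged mice of 26 to 27 months, with no treatment named in the labels. Each age had 3 immunoprecipitates and 3 matched inputs, 12 libraries in total, and each immunoprecipitate with its input gave 1 peak list, called a heart here. The labels name separate mice, whereas a methods section describes the mixing of hearts into a sample, so the number of animals behind a list is not settled. The lists give the position, gene and p-value of each peak. Without read counts the sequencing depth behind them is unknown, and where a heart lacks a peak the methylation was not called, which does not show that it was absent.

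m6A is a methyl group on the adenosine of messenger and long non-coding RNA. It is written by the METTL3 and METTL14 complex within the DRACH sequence context (D stands for any base but C, R for a purine and H for any base but G), it can be removed by FTO and ALKBH5, and YTH domain proteins bind it and alter the decay, splicing and translation of the transcript. In mammalian mRNA it is known to be dense near stop codons and in long internal exons, and exon junction complexes keep it away from splice junctions of short exons. In the heart it has been studied in hypertrophy, ischaemia and calcium handling.

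The sequences of 6 core regions show what lay under a peak in every heart. They are the coding stretches that lay under a peak in all 6 hearts, within 1 exon, with 40 to 300 nt and at least 1 GGAC, and they ranked best by the weakest of their 6 calls. Each is printed 5′ to 3′ on the transcribed strand of GRCm38, in lower case with GGAC in capitals. A GGAC lies in a DRACH context where the next base is not g, so the one marked in Sparcl1 and the first of the pair in Sorbs2 do not.
Sparcl1 (chr5:104092904-104093203, minus strand): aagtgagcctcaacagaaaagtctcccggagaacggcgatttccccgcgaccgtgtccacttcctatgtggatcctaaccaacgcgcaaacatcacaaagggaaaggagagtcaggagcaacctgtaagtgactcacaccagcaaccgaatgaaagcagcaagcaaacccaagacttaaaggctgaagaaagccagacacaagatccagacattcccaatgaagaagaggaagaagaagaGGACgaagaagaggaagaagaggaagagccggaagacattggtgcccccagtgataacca
Art3 (chr5:92392639-92392907, plus strand): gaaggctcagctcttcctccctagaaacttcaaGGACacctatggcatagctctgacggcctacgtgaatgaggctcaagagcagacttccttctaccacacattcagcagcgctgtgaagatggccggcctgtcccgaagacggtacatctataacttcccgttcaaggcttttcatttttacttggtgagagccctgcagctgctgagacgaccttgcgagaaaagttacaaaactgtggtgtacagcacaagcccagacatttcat
Sorbs2 (chr8:45794982-45795162, plus strand): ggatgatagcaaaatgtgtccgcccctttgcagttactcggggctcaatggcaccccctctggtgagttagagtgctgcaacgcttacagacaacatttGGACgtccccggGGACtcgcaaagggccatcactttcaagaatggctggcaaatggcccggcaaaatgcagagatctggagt
Ttn (chr2:76709345-76709555, minus strand): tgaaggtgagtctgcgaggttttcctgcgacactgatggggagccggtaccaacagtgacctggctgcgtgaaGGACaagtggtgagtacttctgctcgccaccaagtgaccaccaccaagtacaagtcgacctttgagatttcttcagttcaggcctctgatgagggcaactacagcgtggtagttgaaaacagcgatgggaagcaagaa
Ttn (chr2:76863356-76863536, minus strand): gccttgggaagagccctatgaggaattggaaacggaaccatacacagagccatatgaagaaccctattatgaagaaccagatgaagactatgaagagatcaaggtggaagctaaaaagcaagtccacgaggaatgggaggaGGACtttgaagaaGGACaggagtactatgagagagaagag
Rhob (chr12:8499117-8499415, minus strand): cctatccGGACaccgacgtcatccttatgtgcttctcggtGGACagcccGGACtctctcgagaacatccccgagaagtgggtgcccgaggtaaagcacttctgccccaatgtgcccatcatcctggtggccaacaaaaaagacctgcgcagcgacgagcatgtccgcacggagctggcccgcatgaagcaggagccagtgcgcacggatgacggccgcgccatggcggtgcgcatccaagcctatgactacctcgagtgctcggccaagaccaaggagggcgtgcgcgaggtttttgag
Sparcl1 encodes a secreted matricellular glycoprotein, and its 300 nt lay in exon 4 of 11, an exon of 996 nt. Art3 encodes a membrane-bound ADP-ribosyltransferase-like protein, with 269 nt in an exon of 709 nt. Sorbs2 encodes an adaptor of the Z-disc and intercalated disc, with 181 nt and 2 GGAC in an exon of 1581 nt. The giant sarcomeric spring titin (Ttn) gave 2 of the 6, with 211 nt in exon 341 of 347 (5437 nt long) and 181 nt in exon 112 (402 nt long). Rhob, a small GTPase of the actin cytoskeleton encoded in 1 exon, had 3 GGAC in 299 nt. Each of these exons has at least 400 nt, and a stretch had to lie within 1 exon to be shown, which favours long exons.

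A peak over the stop codon is the placement most often described for m6A, so the GGAC nearest to the middle of the shared stretch is shown with 25 nt of sequence for core regions whose middle lay within 100 nt of a stop codon. The 6 shown are the best-ranked of those whose shared stretch lay in 1 exon piece and held a GGAC. Cd164, Sidt2 and Gstm1 ranked higher with 2 GGAC each but had shared stretches of 2 or 3 pieces, and mt-Nd5 ranked higher with no GGAC. GGAC is again in capitals, and the position of its A is counted from the first base of the stop codon, which is 0.
Trabd2b (chr4:114610228-114610252, plus strand): agttcacacaGGACagggaccttag
Fyn (chr10:39563911-39563935, plus strand): gcttcctggaGGACtactttacggc
Spcs3 (chr8:54523302-54523326, minus strand): gacaggatcgGGACatgtgtctgtg
Trak2 (chr1:58903386-58903410, minus strand): tgttgcagaaGGACtgtgaatgtgg
Ppp1cb (chr5:32491089-32491113, plus strand): gatttgttaaGGACatacttcataa
Sh3bgr (chr16:96228620-96228644, plus strand): ggttcactgaGGACtcacgccctcc
The A lay at -47 in Fyn, a Src-family kinase, at -49 in Spcs3, a signal peptidase subunit, and at -113 in Sh3bgr, a small heart-expressed protein. It lay at 45 in Ppp1cb, a catalytic subunit of protein phosphatase 1, at 108 in Trak2, an adaptor for mitochondrial transport, and at 113 in Trabd2b, a Wnt-inhibiting metalloprotease. The 3 positions below 0 are in the coding sequence and the 3 above are in the 3′UTR.

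By the rule, each list had to hold at least 1 peak in each of the 1663 core regions. With this floor the number of core peaks was nearly the same in every list, and their share followed the length of the list. The young hearts 1, 2 and 3 had 1874, 1860 and 1844 core peaks, and the aged hearts 1, 2 and 3 had 1860, 1871 and 1848. They made up 28.8%, 34.7% and 44.8% of the peaks of the young hearts, and 20.5%, 20% and 25.4% of the peaks of the aged hearts. The share was thus lowest in the longest lists, those of aged hearts 1 and 2, and highest in the shortest list, that of young heart 3. Within the best decile of each list by p-value, core peaks made up 77.5% (aged 1) to 91.8% (young 2). Between 1488 and 1512 core regions held 1 peak in a given heart and the remaining 151 to 175 held more, up to 7.

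**Figure D1:**
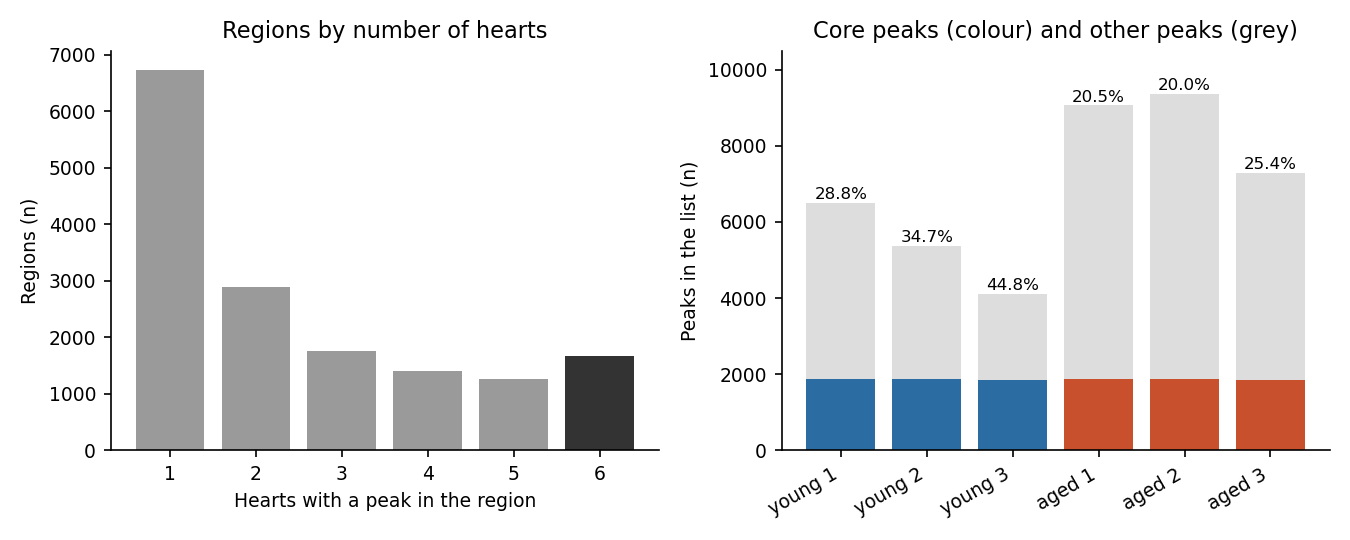
Left, regions (vertical axis, number) by the number of hearts with a peak in them (horizontal axis), core regions in dark. Right, peaks in each heart's list, core peaks in colour (blue young, orange aged) and other peaks in light grey, with the core share above each bar. The coloured parts are of nearly equal height, 1844 to 1874 peaks, since the rule requires a peak of every core region in each list. The share runs from 20% to 44.8% with the length of the list.

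Membership turned on the shortest lists. Just outside the rule lay 1266 regions with a peak in 5 hearts, and of these 639 (50.5%) lacked young heart 3 and 355 (28.0%) young heart 2, against 95, 49, 56 and 72 for young heart 1 and aged hearts 1, 2 and 3. Each list's peaks were also ranked by p-value, as a percent of the list, and the worst of a region's hearts was taken. The median of that weakest rank was 42.3% in the core regions and 68.2% over the 5 hearts of the regions just outside. Young heart 3 held the weakest rank in 793 core regions. The rank is a percent of the list, and core peaks fill a larger share of a shorter list. This count thus depends on list length and cannot show which heart decided membership. Without young heart 3, 2302 regions of 1804 genes had a peak in the 5 other hearts. Leaving out another heart gave 1706 to 2011 regions. Just inside the rule, 64 core regions had a p-value above 0.01 in at least 1 heart, the highest being 0.043 in Zfp292. In 1419 core regions the p-value was at most 0.001 in all 6 hearts, in 1120 at most 1e-05 and in 736 at most 1e-10.

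The core regions had a median exonic length of 418 nt (quartiles 301 and 599 nt, range 150 to 4759 nt), and a narrower stretch within them was covered in all hearts. In 1570 core regions at least 1 base lay under a peak in all 6 hearts, with a median shared stretch of 181 nt (quartiles 151 and 240 nt), or a median of 50% of the region. In the other 93, peaks were joined through a neighbour and no base was covered in more than 5 hearts. Exactly 1 peak in each heart was found in 1263 core regions (75.9%). The strongest peaks of a pair of hearts shared a median of 66.9% (young 3 and aged 2) to 77.8% (aged 1 and aged 3) of their joint length. The same boundaries in all 6 hearts occurred in 19 core regions. Serbp1, an mRNA-binding protein of the ribosome, was 1 of them, with the peak of 301 nt in every heart. Gm26917, annotated as a lincRNA gene, was another, with 241 nt in every heart. Which RNA its peak came from, beyond this annotation, was not tested.

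Core regions often crossed exon junctions. Their bases lay in 1 exon piece in 784 regions (47.1%), in 2 pieces in 315 (18.9%) and in 3 or more in 564 (33.9%), beside 52.6% in 1 piece among the 14036 other regions. The shared stretch was more compact and lay in 1 piece in 941 of 1570 regions (59.9%). The most pieces, 28, were in Trdn, triadin of the calcium release complex, whose region joined 1050 nt of very short exons, and next came Rock2, a protein kinase acting on the cytoskeleton, with 24 pieces. Then 5 regions tied at 11 pieces, 2 in Ttn and 1 each in Ktn1, Myocd and R3hdm2. The longest core regions within 1 exon were in Srrm2, a splicing factor scaffold (4759 nt), Xirp2, an actin-binding protein of the intercalated disc (2637 nt), and Ankrd11, a chromatin regulator (2459 nt). In Ankrd11 no base was covered in all 6 hearts. In Srrm2 the 4759 nt were a chain of 5 to 7 peaks per heart with 903 nt covered in all 6.

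For 26 core regions of 21 genes the p-value was listed as 0 in all 6 hearts, so they tie for the best rank. Nexn, an actin-binding Z-disc protein whose loss causes cardiomyopathy, had the longest shared stretch, 1286 nt over chr3:152237759-152252701 on the minus strand. Its strongest peak had 987, 1017 and 1734 nt in the young and 927, 957 and 927 nt in the aged hearts, so all 6 hearts had a long peak. Heg1, a receptor required for the development of the heart wall, shared 900 nt within exon 6 of 17. Its peaks had 1078, 989 and 1168 nt in young and 1168, 1108 and 719 nt in aged hearts, and the ages overlapped. Zbtb20, a zinc finger repressor, shared 480 nt in its 3′UTR, an exon of 24280 nt.

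Among the other tied regions were Cobll1 (390 nt shared), an actin regulator, and Rnf213 (301 nt), a ubiquitin ligase of vessel biology. Lpl, lipoprotein lipase, which supplies the heart with fatty acids, shared 300 nt around its start codon. The shared stretches of Actn2 (181 nt), the Z-disc crosslinker alpha-actinin, and Txlnb (210 nt), a muscle protein, also lay at the start codon. Ttn had 4 of the 26. Of the 26, 19 lay in exons of at least 400 nt, among them the 5 mitochondrial regions and the single-exon Malat1, Gm10925 and Gm26917. Coding sequence away from the codon windows held 16, and 14 had a GGAC in the shared stretch. Of all core regions placed on coding transcripts, 60.9% lay in such exons and 70.5% in such coding sequence. A GGAC was in 52.9% of all shared stretches. In Actn2 the shared 181 nt held neither GGAC nor any DRACH.

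Most genes had a single core region: 1136 genes had 1, 168 had 2, 39 had 3 and 17 had 4 or more. Ttn had 24 of its 109 regions in the core, the most of any gene, of which 15 lay within 1 exon piece. Ahnak, a giant scaffold protein, followed with 8 of 20, and Sorbs2 with 6 of 21. Cmya5, an anchoring protein of the Z-disc, had 5 of 15, Dst, a cytoskeletal linker, 5 of 37, Map4, a microtubule-associated protein, 5 of 12, Srrm2 5 of 6 and Zbtb20 5 of 33. Timp3, an inhibitor of matrix metalloproteinases, had each of its 4 regions in the core, and Rbm25, a splicing factor, had 4 of 5. The coding genes with a core region had a median transcript length of 4248 nt and a median coding length of 1962 nt, beside 3340 and 1512 nt for the 5214 coding genes with a peak but no core region.

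Non-coding genes held 66 core regions, in 61 genes. Antisense genes held 20 of the regions, lincRNA genes 13, unclassified transcripts to be experimentally tested 13 and processed pseudogenes 6. Of the genes with a peak, 14.5% of antisense and 15.8% of lincRNA genes had a core region. The share was 9.70% for the unclassified transcripts and 5.66% for processed pseudogenes, all below the 19.9% of protein-coding genes. Malat1, a nuclear long non-coding RNA with well-known m6A sites, had a p-value listed as 0 in every heart and 572 nt shared. Its strongest peak had 840, 510 and 930 nt in young and 1409, 240 and 930 nt in aged hearts, so the lengths spread from 240 to 1409 nt and the ages overlapped.

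Several of these calls cannot be given to their gene with certainty. Of the 66 non-coding core regions, 23 shared bases with a peak called on the other strand, as did 53 core regions of coding genes. Such pairs included A630019I02Rik with Cmya5, Gm26899 with Zfp106, Gm31251 with Myh7 and Hand2os1 with Hand2, each with other-strand peaks in 6 hearts. The same held for both core regions of Pln (with Gm47644), for Vcl (with Ap3m1) and for a core region of Timp3 (with Syn3). The reads were aligned with strand information, but whether the peak caller kept it is not stated in the sources used here, so a transcript and its antisense partner cannot be told apart in these pairs. Gm10925 on chromosome 1 is a nuclear copy of mitochondrial DNA: 100% of the 30-base words of its shared stretch occur in the mitochondrial genome. In addition, 21 core regions carried peaks of 2 overlapping genes and 2 of 3.

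The mitochondrial chromosome had 9 core regions among its 15 regions (60.0%), in 7 genes. The 2 ribosomal RNA genes were covered, with a shared stretch of 180 nt in mt-Rnr1 and 749 nt in mt-Rnr2. The mRNAs with a core region encode subunits of complex I (mt-Nd4, mt-Nd5 and mt-Nd6), complex IV (mt-Co1) and the ATP synthase (mt-Atp6). Of the 9, 5 had p-values listed as 0 in all hearts. For the other chromosomes the core share of regions ran from 8.66% (chromosome 17) to 13.7% (chromosome 3), and it was 0 of 9 on Y.

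The position was read at the middle of each region's most widely covered bases, on the coding transcript with the longest coding sequence. Of the core regions, 1388 could be placed this way, and 978 (70.5%) lay in coding sequence (CDS), 266 (19.2%) in the 3′UTR, 66 (4.76%) within 100 nt of a stop codon, 58 (4.18%) within 100 nt of a start codon and 20 (1.44%) in the 5′UTR. The 11274 other regions that could be placed had 67.0%, 20.1%, 5.38%, 5.87% and 1.60%. Of the coding genes' core regions, 209 had their middle off that transcript, and 208 of these were in an exon of another transcript of the gene. Along the CDS, cut into 3 equal parts from the start codon, the core regions split into 31.8%, 32.7% and 35.5%, and the other regions into 35.8%, 33.0% and 31.2%.

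The same shares were then compared heart by heart, between a heart's core peaks and its other peaks, with a two-sided exact sign-flip test over the 6 hearts. The core regions are the same stretches in every heart, so this test covers the spread between hearts and not that between genes. Its smallest p is 0.03125, and 8 measures were compared, of which none passed 0.05 after Benjamini-Hochberg adjustment. With 8 measures that would need at least 6 of them at the smallest p.

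Peaks near the start codon were fewer among core peaks, 4.07% ± 0.329 (SD, n = 6), than among other peaks, 5.43% ± 0.501. The difference ran from -0.307 points in young heart 3 to -2.40 in aged heart 2, with a mean of -1.36 points ± 0.722 and the same direction in all 6 hearts (exact sign-flip permutation test, p = 0.03125, adjusted p = 0.125). It was smaller in other comparison sets. Against the peaks of regions found in 4 or 5 hearts it was -0.743 points, with 5 hearts on that side (exact sign-flip permutation test, p = 0.09375), and among peaks of 120 to 240 nt alone it was -0.616 points, again with 5 hearts on that side (exact sign-flip permutation test, p = 0.21875). Against the 8368 other peaks of the genes that have a core region the direction turned, to 0.241 points with 4 of 6 hearts on that side (exact sign-flip permutation test, p = 0.28125). The last 2 sets were added after the data were seen.

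Stop codon peaks made up 4.94% ± 0.342 (SD, n = 6) of core peaks and 5.46% ± 0.595 of other peaks. The difference of -0.519 points ± 0.851 had its sign in 4 hearts, and aged hearts 1 and 2 went the other way (exact sign-flip permutation test, p = 0.21875). CDS peaks differed by 2.95 points ± 4.15 (p = 0.15625), 3′UTR peaks by -0.932 points ± 3.88 (p = 0.59375) and peaks in last exons by 1.41 points ± 3.69 (p = 0.375), all by the exact sign-flip permutation test and all within the spread between hearts. The last exon difference depended on the set and on 1 heart. It was 5.35 points within genes with a core region (exact sign-flip permutation test, p = 0.0625, 5 hearts), 4.10 points among peaks of 120 to 240 nt (p = 0.09375, 5 hearts) and 2.86 points without young heart 2 (p = 0.0625, the smallest that 5 hearts allow). The spread came from the other peaks. The 3′UTR share of core peaks ran from 17.7% to 18.3% over the hearts, that of other peaks from 13.2% in young heart 3 to 24.8% in young heart 2.

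**Figure D2:**
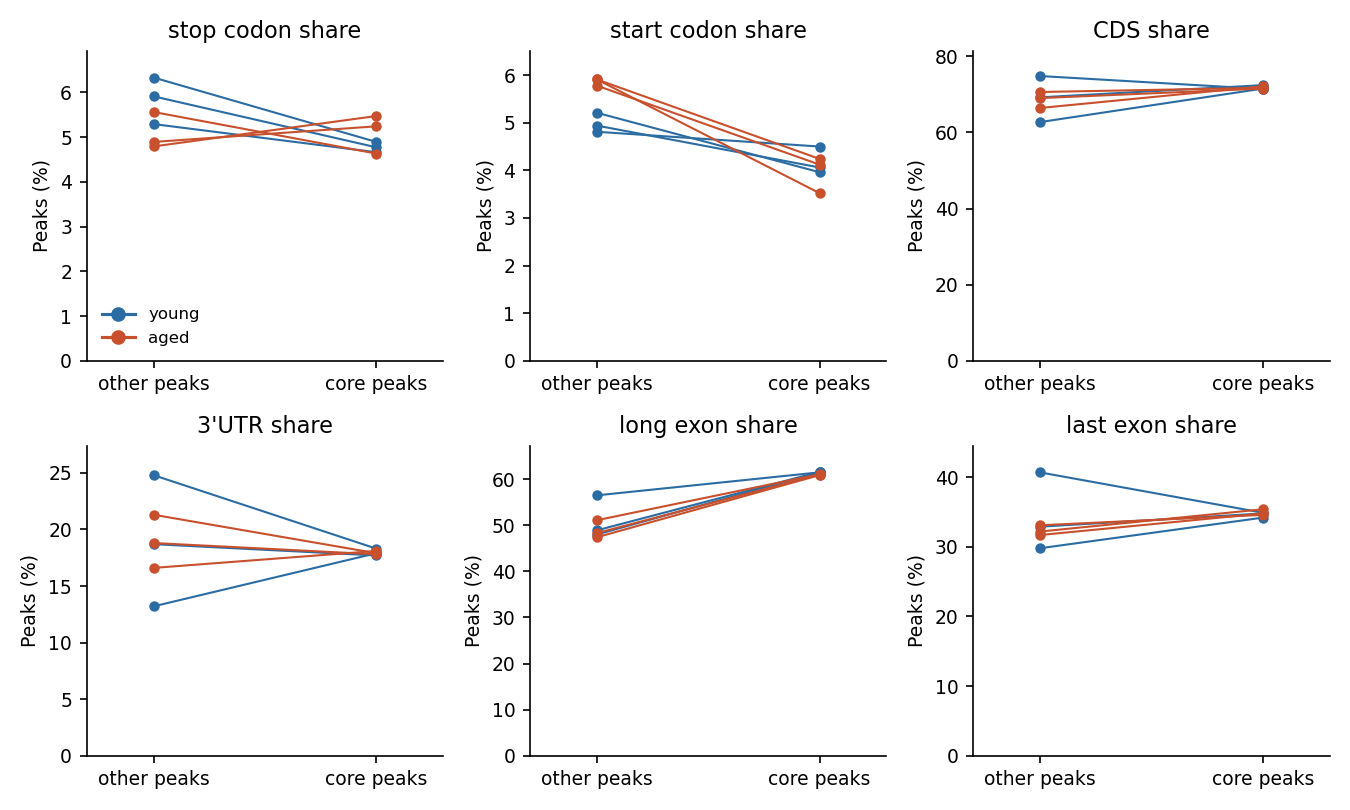
Share of peaks (vertical axes, percent) among other peaks and core peaks of each heart, joined by a line per heart (blue young, orange aged), for 6 positions. The lines of the long exon share rise in all 6 hearts and those of the start codon share fall in all 6, while those of the other positions cross. Core peaks are at nearly the same value in every heart because the regions are the same.

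The largest difference in position was in the share of long exons. Core peaks had their middle in an exon of at least 400 nt in 61.6%, 61.5% and 61.5% of young hearts' peaks and 61.0%, 60.9% and 61.1% of aged hearts' peaks. Other peaks had it in 48.9%, 56.5% and 48.0% in young and 48.3%, 47.4% and 51.1% in aged hearts. The core share was higher in all 6 hearts, by 4.92 points in young heart 2 to 13.6 points in aged heart 2, with a mean of 11.2 points ± 3.36 (exact sign-flip permutation test, p = 0.03125, adjusted p = 0.125).

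This difference was of similar size in each comparison set that was tried. Against the peaks of regions found in 4 or 5 hearts it was 8.73 points (exact sign-flip permutation test, p = 0.03125). Within the genes that have a core region it was 8.88 points, from 1.59 to 13.3 over the hearts. Among peaks of 120 to 240 nt alone, 4572 core and 23559 other peaks, it was 11.7 points, from 3.59 to 15.6, and all 6 hearts were on the same side each time. The last 2 sets were added after the data were seen.

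The share grew with the number of hearts. Regions with a peak in 1, 2 and 3 hearts had their middle in an exon of at least 400 nt in 47.6%, 47.9% and 46.3% of cases, those of 4 and 5 hearts in 50.4% and 54.2% and core regions in 60.9%. The median length of that exon was 306 nt for regions of 1 heart, 601 nt for 5 hearts and 922 nt for core regions. Long internal exons held 22.6% of core regions (313) and 12.6% of other regions. Last exons held 34.4% and 32.4%, and transcripts of a single exon held 1.80% and 1.29%. Fewer core regions had their middle within 50 nt of a splice junction, 29% beside 38.6% of the others. Within exons of at least 400 nt those shares were 4.15% and 6.21%. Transcript abundance is not part of the lists, and its part in these shares was not tested.

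**Figure D3:**
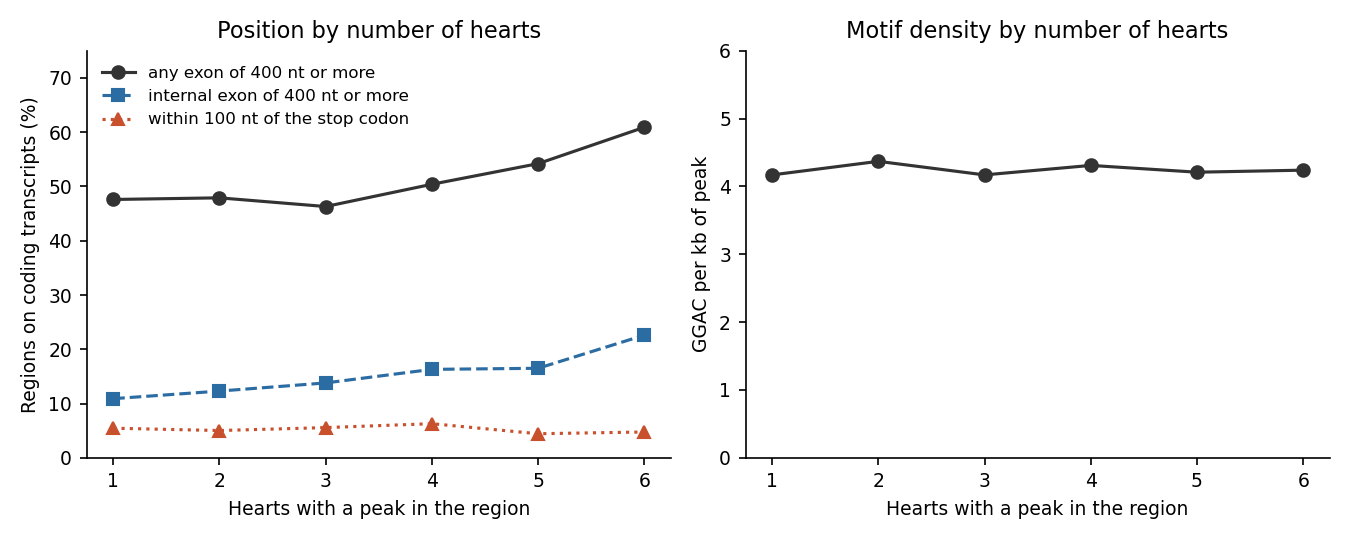
Left, share of regions placed on coding transcripts (vertical axis, percent) with their middle in an exon of at least 400 nt (circles), in an internal one (squares) or within 100 nt of the stop codon (triangles), by the number of hearts with a peak (horizontal axis). Right, GGAC per kb of peak sequence by the same number. The long exon share reaches 60.9% at 6 hearts, while the stop codon share and GGAC show no such course.

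GGAC per kb of peak differed between core and other peaks by less than the spread between hearts. GGAC was searched on the transcribed strand. Core peaks held 4.24 ± 0.0851 (SD, n = 6) GGAC per kb and other peaks 4.29 ± 0.253, a difference of -0.047 per kb with 3 hearts on each side (exact sign-flip permutation test, p = 0.53125). The central 100 nt held a GGAC in 34.5% ± 0.922 of core peaks and 33.5% ± 1.75 of other peaks, and the difference of 0.989 points ± 1.50 was within the spread (exact sign-flip permutation test, p = 0.15625). In the central 50 nt alone the difference was 1.3 points, with the same direction in all 6 hearts (exact sign-flip permutation test, p = 0.03125, adjusted p = 0.0833). By the number of hearts the density stayed between 4.17 and 4.37 per kb.

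The wider DRACH context was slightly denser in core peaks, 22.7 per kb ± 0.200 (SD, n = 6) beside 21.9 ± 0.543. The difference of 0.833 per kb was found in all 6 hearts, from 0.324 to 1.25 (exact sign-flip permutation test, p = 0.03125, adjusted p = 0.0833). A GGAC was in 831 of the 1570 shared stretches (52.9%) and a DRACH in 94.1%, and other regions have no such stretch to set beside them. DRACH is frequent in both kinds of peak. The central 100 nt held one in 89.0% ± 0.561 of core peaks and 88.4% ± 0.924 of other peaks. That difference of 0.625 points had its sign in 4 hearts (exact sign-flip permutation test, p = 0.21875). The stretches covered in all 6 hearts had 4.23 GGAC per kb, and the remaining bases of the same regions 3.98. Along the transcript, GGAC density was read in steps of 50 nt around the middle of the 1446 core regions on a transcript. It was highest in the 50 nt before the middle, at 5.0 per kb, beside 4.62 in the other regions at the same place. The remaining steps within 500 nt held 3.71 to 4.82 per kb in the core regions. Those centred 225 and 475 nt before the middle held 4.75 and 4.58. The shared stretch with the most GGAC, 12, was in A630019I02Rik, antisense to Cmya5. Its region shared bases with Cmya5 peaks of 6 hearts on the other strand, so the strand of this count is uncertain.

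Genes of the heart muscle had a high share in the core. Of the 27 listed genes of the sarcomere and Z-disc that had a peak, 16 (59.3%) had a core region, beside 19.2% of all genes with a peak. The lists were written with earlier results of these data known, and their counts are descriptions with no test. The 16 included Ttn, Nexn, Actn2, Myl3, the ventricular essential light chain, Xirp2, Des, the muscle intermediate filament, and Actc1, cardiac actin. The core region of Des was 240 nt in its 3′UTR, and those of Myl3 and Actc1 lay at the start codon. The 27 members had a median transcript length of 3028 nt, below the 4248 nt of all coding genes with a core region.

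Calcium handling and ion channel genes had a core region in 14 of 25 (56.0%). They included Trdn, Gja1, the gap junction protein connexin 43, Cacna1c, the pore of the L-type calcium channel, Abcc9, the regulatory subunit of the ATP-sensitive potassium channel, Pln, the inhibitor of the calcium pump, Kcnip2, a potassium channel subunit, Casq2, the calcium store protein, and Atp1b1, a sodium pump subunit. Of the 3 regions of Pln, 2 were in the core, and the best had only 91 nt covered in all hearts. Both shared bases with peaks of Gm47644 on the other strand, so their strand is uncertain. The ryanodine receptor Ryr2 had 1 core region of its 16 regions, in the 3′UTR.

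Cardiac transcription factors and coregulators had a core region in 13 of 22 (59.1%). Mef2d, Tead1, Hand2 and Mef2a each had 2 core regions, and only the best-ranked region of a gene is described. That of Mef2d, a MADS-box factor of muscle genes, had a p-value listed as 0 in every heart. Esrrg, an oestrogen-related receptor of energy metabolism, Tead1, a Hippo pathway factor, and Gata4, a master regulator of cardiac development, carried it in the 3′UTR, at 510, 1499 and 383 nt after the stop codon. Hand2, a factor of the right ventricle, carried it in the 5′UTR, Mef2a near the start codon and Myocd, the serum response factor coactivator, in the CDS. In Ppargc1a, a coactivator of mitochondrial genes, only 1 base of the region was covered in all 6 hearts.

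Genes of the intercalated disc, costamere and nuclear envelope had a core region in 9 of 25 (36.0%), among them Dsp, the desmosomal protein desmoplakin, Plec, a cytolinker, Dmd, dystrophin, Vcl, vinculin, Ctnna1, an alpha-catenin, Itgb1, an integrin, Dag1, dystroglycan, and Dtna, a dystrobrevin. Chromatin modifiers had one in 19 of 42 (45.2%), with 33 core regions and a median transcript length of 8612 nt. The best ranked were the histone methyltransferases Ash1l and Kmt2c, the remodellers Chd9 and Smarca2, the demethylases Kdm3b and Kdm5a, the Polycomb-associated Asxl1 and the corepressor Ncor1. Ash1l and Kmt2c had 3 core regions each, and the best-ranked had its middle in a coding exon of 4558 and 1896 nt.

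Of the m6A writers, erasers and readers, 14 of 20 genes had a peak and 1 (7.14%) had a core region. That gene was Zc3h13, a zinc finger protein that anchors the writer complex in the nucleus, and its region spanned 808 nt in 7 exon pieces of the CDS. Its strongest peak had 749, 509 and 480 nt in young and 749, 539 and 480 nt in aged hearts, and the ages overlapped. Rbm15 and the nuclear reader Ythdc1 had peaks in 5 hearts, Fto and Rbm15b in 4, the eraser Alkbh5 in 3 and Ythdf2 in 1. No heart had a peak in the catalytic writer Mettl3 or in its partner Mettl14.

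Other lists, counted over their genes with a peak, lay nearer to the 19.2% of all genes with a peak. Of 47 listed nuclear genes of oxidative phosphorylation, 26 had a peak and 4 of these (15.4%) a core region, or 8.51% of the list. They were Cycs, cytochrome c, Uqcrb and Uqcrc1 of complex III and Ndufv2 of complex I. The 26 had a median transcript length of 1042 nt. Of 80 listed cytosolic ribosomal protein genes, 35 had a peak and 5 of these (14.3%) a core region, or 6.25% of the list. Among the 5 were Rps18, Rpl34, Rpl9 and Rpl14, and the 35 had a median transcript of 860 nt. These genes have many pseudogene copies, so their calls are uncertain. Extracellular matrix genes had one in 7 of 28 (25%), Bgn, Nid1, Hspg2, Sparc, Lamc1, Col6a2 and Col6a1, and the 2 collagen VI regions ranked among the weakest, at 80.4% and 83.5% of a list.

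**Figure D4:**
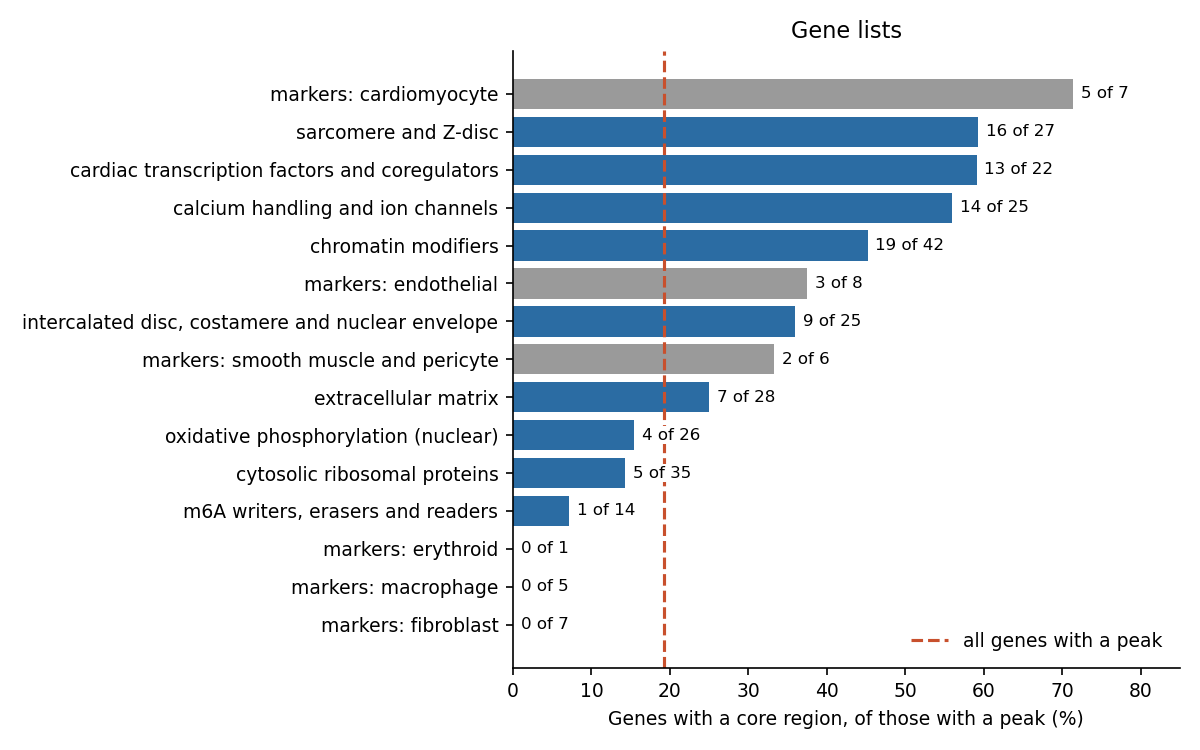
Genes with a core region as a percent of the listed genes with a peak (horizontal axis), for each gene list (blue) and cell type marker list (grey), with the counts beside the bars and the share of all genes with a peak, 19.2%, as a dashed line. The cardiomyocyte, sarcomere, transcription factor and calcium lists lie at 56.0% to 71.4%, and the fibroblast, macrophage and erythroid markers at 0.

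Marker genes of cell types were counted in the same way. Of the 8 cardiomyocyte markers, 7 had a peak and 5 a core region (Ttn, Actn2, Pln, Tnnt2 and Ryr2). Myh6 and Tnni3 had peaks in 4 and 3 hearts and no core region, and Mybpc3 had no peak. Of the endothelial markers, 3 of 8 had one (Cdh5, Ptprb and Flt1), and of the smooth muscle and pericyte markers 2 of 6 with a peak (Pdgfrb and Smtn). None of the 7 fibroblast markers, 5 macrophage markers and 1 erythroid marker with a peak had a core region. In whole hearts, the share of cells of a type, the RNA per cell and the methylation of a transcript cannot be told apart. The part of each in these counts was not tested.

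Aged hearts had longer core peaks. The mean exonic length was 307.1, 269.0 and 265.2 nt in young hearts 1, 2 and 3 and 344.1, 335.6 and 333.1 nt in aged hearts 1, 2 and 3. Every aged heart was above every young heart, with means of 280.5 ± 23.2 nt (SD, n = 3) and 337.6 ± 5.78 nt (SD, n = 3) and a difference of 57.1 nt. The exact permutation test gave p = 0.1, the smallest that 3 hearts against 3 allow, and adjusted p = 0.3 over 3 measures. When each list was cut to its 4114 best peaks the difference was 68.2 nt, and it was 39.0 nt for core regions with 1 peak in each heart. Peaks outside the core had mean lengths of 192 to 202 nt in young and 209 to 214 nt in aged hearts. The aged lists were also the longer lists, and the part of sequencing depth in the lengths was not tested.

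**Figure D5:**
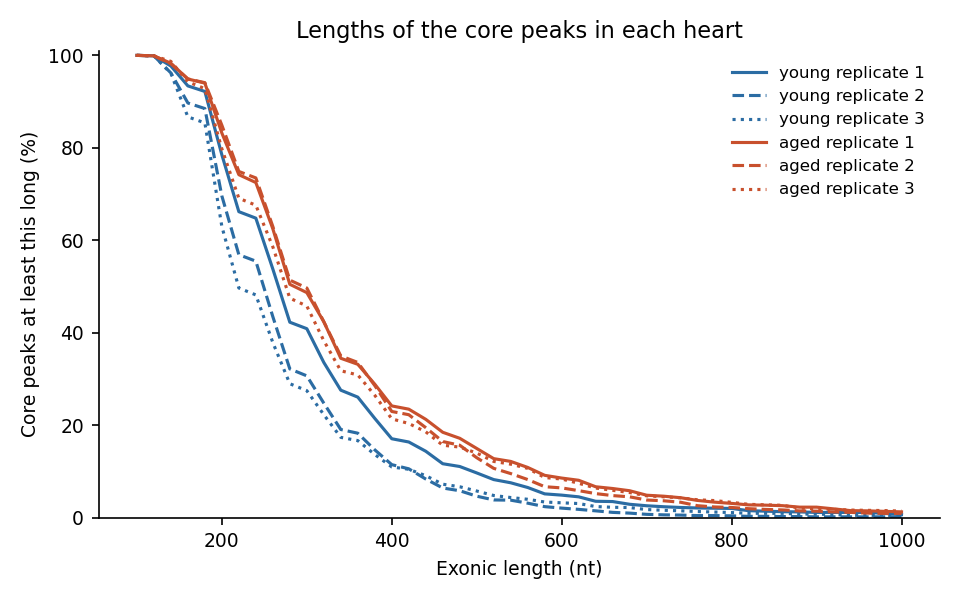
Share of core peaks (vertical axis, percent) that are at least as long as the exonic length on the horizontal axis, with 1 line per heart (blue young, orange aged). From about 200 to 600 nt the 3 aged lines lie above the 3 young lines, and young replicate 1 lies between the others.

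By region, most core peaks had a greater mean length in aged hearts. Among the 1263 core regions with 1 peak in each heart, the mean length was greater in aged hearts in 918 and smaller in 256, with a median aged to young ratio of 1.11. The lengths did not overlap in 131 regions that were longer in every aged heart (10.4%) and in 9 that were shorter (0.713%). These are the shares over all regions that could be compared, since a length in every heart exists for core regions alone. Together they came to 11.1%. A random order of 3 and 3 hearts separates the ages with a probability of 0.1 where no lengths tie. Lengths often tied between hearts, as in the 19 core regions with the same boundaries in all 6, and ties lower that probability. The 0.1 is thus an upper limit, and the share to set beside the 11.1% was not computed. The largest ratio was that of Myot, myotilin of the Z-disc, with 210, 180 and 150 nt in young and 687, 747 and 687 nt in aged hearts, 3.93 times as long. Akap13, an anchoring protein for kinase A, had 181, 121 and 181 nt in young and 420, 360 and 420 nt in aged hearts around its stop codon. Crat, carnitine acetyltransferase, had 211, 211 and 181 nt in young and 390, 540 and 510 nt in aged hearts.

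The 9 regions that were shorter in every aged heart lay in Uqcrc1, Ivns1abp, 3425401B19Rik, mt-Nd5, Rab2a, Ttn, Smoc2, Rhob and Ppp2r3a. These and the 3 genes of the preceding sentences were picked for their values and carry no test. In Rhob, whose shared stretch is printed above, the peak had 357, 447 and 388 nt in young and 328 nt in each of the 3 aged hearts. In Uqcrc1, a core subunit of complex III, it had 270, 270 and 540 nt in young and 181 nt in each aged heart. In Ivns1abp, an actin-binding kelch protein, it had 180, 300 and 300 nt in young and 121, 151 and 121 nt in aged hearts.

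In the main setting, the exon structure and the number of peaks did not separate the ages. Core peaks of 3 or more exon blocks made up 23.00%, 19.03% and 18.76% in young and 25.43%, 25.23% and 23.00% in aged hearts, and young heart 1 and aged heart 3 were equal to 2 decimals. The difference was 4.29 points, 20.26% ± 2.37 (SD, n = 3) against 24.55% ± 1.35 (exact permutation test, p = 0.2, adjusted p = 0.3). Under some other settings these shares did separate the ages. The difference was 4.35 points with 50% shared length to join peaks and 4.38 at p-values of at most 1e-05. It was 5.44 with equally long lists and 3.93 in regions with 1 peak in each heart. Each gave p = 0.1 by the exact permutation test, and with 1 heart left out p ran from 0.1 to 0.3. A core region held 1.118 ± 0.00903 peaks in young and 1.118 ± 0.00692 in aged hearts (SD, n = 3), and the difference of 0.0002 peaks was within the spread (exact permutation test, p = 1.00).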

How the data were processed

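Per the paper's methods, the authors aligned reads to GRCm38 with HISAT2 (2.1.0) and ran exomePeak in each heart, keeping peaks up to p = 0.05 without a limit on the false discovery rate. They deposited the exon blocks, the gene and the unadjusted p-value of each peak. This p-value was used here to rank and filter peaks within 1 list. It was listed as 0 for 503 of 41694 peaks. The submitters' processing notes also name cutadapt (2.5) and HOMER (4.10.4). Read counts were not used, so depth is unknown.

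Peaks were joined on the same strand by at least 1 shared exon base. Gene identifiers were matched to GENCODE M21 (7081 of 7088, and all 1360 core genes), and sequence was read from the RefSeq copy of GRCm38. All 779 shared stretches that lay in 1 exon of the chosen transcript were found letter for letter in its GENCODE sequence. A region took the gene with most of its peaks. Positions are counted from 1. Features were read at the middle of a peak, on the coding transcript with the longest CDS, with 100 nt around the codons.

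Core peaks were set against other peaks by an exact sign-flip permutation of the 6 hearts, and aged against young hearts by an exact permutation of all 20 ways to assign 3 and 3 hearts, each two-sided. Benjamini-Hochberg adjustment ran over the 8 and the 3 measures. Where nothing shows that samples came from separate animals, such a p-value measures the spread between these samples. The genes named are the 12 core regions with the best rank in their weakest heart, the genes with the most core regions, the best-ranked non-coding core regions, up to 8 members of each gene list (some are not reported here), all m6A regulators, and the 3 regions with most exon pieces (with the ties for the third) and the 3 longest in 1 exon. The rank ties for 26 regions, and taking the longest shared stretch first was chosen after the data were seen, as were the other tied regions, Timp3, Rbm25 and the regions named for their length by age. The core regions and the gene lists were chosen with earlier results of these data known.

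The alternatives were a shared length of 50% to join peaks, a p-value of at most 1e-05, equally long lists of best peaks, a base covered in all 6 hearts, each heart left out, other windows, exon lengths and motifs, peaks of regions in 4 or 5 hearts, and the replicate block. The joining and both tests were tested on simulated data. The tools were Python 3.11.15, numpy 2.4.6, pysam 0.24.0, samtools 1.23.1 and, for plots, matplotlib 3.10.9.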

Additional observations from a re-analysis of the deposited data

How the results depend on the processing

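The number of core regions ran from 1120 (p-value at most 1e-05) to 2302 (without young replicate 3), and 1120 of the core regions (67.3%) remained at the stricter p-value, 1285 (77.3%) with the same number of peaks per heart and 1640 (98.6%) with 50% shared length. No test passed 0.05 after adjustment under any setting. The long exon difference kept its direction in all of them, between 8.73 and 12.5 points. With a heart left out the smallest p is 0.0625.

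Several directions turned, and the cause was not tested. All but that of the start codon were within the spread between hearts in the main comparison. The 3′UTR difference became 1.15 points with the same number of peaks per heart, 0.415 against regions of 4 or 5 hearts, 0.881 within genes with a core region and 1.32 among peaks of 120 to 240 nt. With 1 heart left out it ran from -2.06 to 0.191 points, the highest without young replicate 2. The CDS difference became -2.34 within genes with a core region and -0.277 at 120 to 240 nt. The stop and start codon differences became 1.26 and 0.241 within those genes. The share of central GGAC became -0.222 with the same number of peaks, and GGAC per kb became 0.14 within those genes, 0.0711 at 120 to 240 nt and 0.833 with DRACH in its place. These sets of genes and lengths were chosen after seeing the data. Leaving out the mitochondrial chromosome, likewise added, turned no direction. Peaks per core region differed by -0.00851 with 50% shared length, -0.000893 at 1e-05 and -0.035 with the same number of peaks, by 0 by construction with 1 peak in each heart, and from -0.00441 to 0.00461 with a heart left out.

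The replicate numbers were not taken as pairs in the main test. The length deviations of same-numbered hearts correlated at 0.0246, 0.234 and 0.151, and those of differently numbered hearts at -0.208 to 0.0713. Aged replicate 1 correlated best with young replicate 3, at 0.0713. These values do not settle whether the numbers mark pairs. With the replicate block, lengths differed by 57.1 nt, 3-block shares by 4.29 points (exact sign-flip permutation test over 3 pairs, p = 0.25 for each, the smallest it allows) and peaks per region by 0.0002.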
